A study of Mus musculus with 61 samples.

Results

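Plk2, Plk3, Sesn1, Sesn2, Btg2, Gadd45a, Zmat3 and Phlda3 are 8 targets of the p53 family that act in growth arrest and in the control of stress. They were taken by symbol from the 23927 gene rows of a table of read counts in single mouse ovarian cells, and each of the 8 had a row. The cells came from wild-type mice of CD-1, an outbred stock, at postnatal day 5. The mice had received solvent (control) or doxorubicin, an anti-cancer drug that damages DNA, by intraperitoneal injection 6 hours earlier. The source gives the dose with an unclear unit, so it is not stated here. Each library held the RNA of 1 cell, and the groups were 16 control oocytes, 16 doxorubicin oocytes, 16 control granulosa cells and 13 doxorubicin granulosa cells. Granulosa cells are the somatic cells that surround and nurse the oocyte. The series deals with the kinase JNK in oocytes and with ovarian damage by such drugs, and the 2 comparisons below ask how these transcripts differed after doxorubicin in each cell type. The labels do not say which animal a cell came from. Each group was therefore counted as 1 sample, and no difference was tested. The intervals given are 95% intervals for counting error only, and PCR reads without molecular identifiers are not independent molecules.

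Transcription factors of the p53 family are activated by DNA damage and bind response elements near the genes they control. In oocytes of resting follicles the family member best known for this task is TAp63, whereas somatic cells such as granulosa cells use p53 itself. Some targets promote cell death, and others halt the cell cycle or lower the demands on a damaged cell. The 8 genes were listed for the latter side, which does not exclude a part in cell death. Phlda3 encodes a small pleckstrin homology domain protein that competes with AKT for membrane lipids. Plk2 and Plk3 encode polo-like kinases of stress and checkpoint responses. Sesn1 and Sesn2 encode sestrins, which restrain the growth kinase mTORC1 through the GATOR complexes. Btg2 encodes an antiproliferative protein that recruits the CCR4-NOT deadenylase to messenger RNAs. Zmat3 encodes a zinc finger protein that binds RNA. Gadd45a encodes a protein that binds PCNA and the mitotic kinase CDK1, and that can activate the kinase MAP3K4 upstream of p38 and JNK.

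The sequence just upstream of the start site is shown for the 3 genes that were at least 2-fold higher after doxorubicin in both cell types (Phlda3, Plk2 and Sesn2). Btg2 and Gadd45a, which stayed within 2-fold in both, are shown beside them for contrast. Each line holds the 250 bases before the start site in RefSeq (build GRCm38.p6), read 5′ to 3′ on the strand of the gene, and capitals mark matches to a p53 decamer or to TGACGTCA.
Phlda3: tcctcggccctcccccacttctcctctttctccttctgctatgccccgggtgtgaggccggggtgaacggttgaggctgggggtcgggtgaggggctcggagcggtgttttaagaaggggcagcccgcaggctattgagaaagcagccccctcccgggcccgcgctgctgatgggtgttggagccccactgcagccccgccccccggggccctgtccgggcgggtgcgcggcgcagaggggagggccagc
Plk2: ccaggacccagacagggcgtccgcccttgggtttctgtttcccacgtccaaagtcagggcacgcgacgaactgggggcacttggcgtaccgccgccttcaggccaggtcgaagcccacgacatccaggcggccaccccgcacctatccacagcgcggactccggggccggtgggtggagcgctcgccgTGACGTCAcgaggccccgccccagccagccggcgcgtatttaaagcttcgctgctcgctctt
Sesn2: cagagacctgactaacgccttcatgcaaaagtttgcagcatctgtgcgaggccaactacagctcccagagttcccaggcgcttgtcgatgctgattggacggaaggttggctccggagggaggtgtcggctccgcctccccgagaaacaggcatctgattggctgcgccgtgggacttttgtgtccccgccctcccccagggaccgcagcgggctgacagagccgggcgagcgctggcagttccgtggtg
Btg2: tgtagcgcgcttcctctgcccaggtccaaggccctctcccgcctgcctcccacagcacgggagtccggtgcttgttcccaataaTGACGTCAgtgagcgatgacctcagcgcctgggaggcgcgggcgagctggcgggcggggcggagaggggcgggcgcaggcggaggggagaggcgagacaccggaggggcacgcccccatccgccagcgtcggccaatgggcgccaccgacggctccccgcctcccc
Gadd45a: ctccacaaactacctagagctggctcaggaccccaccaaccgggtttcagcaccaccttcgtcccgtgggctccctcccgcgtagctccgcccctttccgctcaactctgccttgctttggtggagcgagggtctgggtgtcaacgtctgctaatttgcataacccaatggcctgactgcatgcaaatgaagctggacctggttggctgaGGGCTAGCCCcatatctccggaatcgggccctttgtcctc
These windows lie at chr1:135765835-135766084 on the plus strand for Phlda3, chr13:110394794-110395043 on the plus strand for Plk2 and chr4:132510457-132510706 on the minus strand for Sesn2. Those of Btg2 and Gadd45a lie on the minus strand at chr1:134079156-134079405 and chr6:67037408-67037657.

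The search covered 8 windows of 7 of the genes, since Sesn1 has 2 start sites in the table. Zmat3 was not searched. A p53 decamer is 1 unit of 10 bases of the p53 consensus, matched exactly, and 7.13% of 32851 mouse windows of this length held one on either strand. Among the 8 genes it was found in Gadd45a, where GGGCTAGCCC began 40 bases before the start, and before the second start site of Sesn1. A full p53 site was taken as 2 such units with at most 3 bases between them and at most 2 mismatches, and 1.09% of all windows held one. The only full site in the 8 windows was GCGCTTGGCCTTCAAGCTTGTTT, which began 186 bases before the second start of Sesn1 at chr10:41887189-41887438 on the plus strand, with 2 mismatches. For comparison, the same search found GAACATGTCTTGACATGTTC, with 1 mismatch, 51 bases before the first start of Cdkn1a, the gene of the cell cycle inhibitor p21. The windows of Phlda3, Plk2, Sesn2 and Btg2 held no match to either p53 pattern. This says only that these letters were not found in these windows. Response elements of many p53 targets lie in introns or farther upstream.

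The palindrome TGACGTCA, the cyclic AMP response element that proteins of the CREB and ATF families bind, was present in 1.55% of all windows. It was found 62 bases before the start of Plk2 and 166 bases before that of Btg2. The shorter TGACG, searched on both strands and contained in TGACGTCA, was also found in the windows of Plk3 and of the second start of Sesn1, and in 17.8% of all windows. The windows of the 8 genes were rich in G and C, from 59.2% in Gadd45a to 73.2% in Btg2, against a median of 52.4% over all windows. A match is a description of the sequence and not evidence of binding, which was not measured.

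Total counts per cell lay between 6834594 and 31262609. Levels are given as CPM, the counts of a gene per 1000000 counts of the cell or of the summed cells of a group. In all 32 oocytes the summed CPM of 18 oocyte markers was above that of 19 granulosa markers. The granulosa libraries were less pure. More oocyte than granulosa marker CPM was found in 5 of 16 granulosa libraries of the control group and in 8 of 13 of the doxorubicin group. The median oocyte marker sum was 1751 CPM in the control and 9158 CPM in the doxorubicin group. Among the doxorubicin oocytes, cells 9, 11 and 12 carried 3547, 2836 and 2226 CPM of granulosa markers, while the highest control oocyte had 804 CPM. Stroma markers reached 911 CPM in a control oocyte, 2028 CPM in a doxorubicin oocyte, 13451 CPM in a control granulosa library and 8635 CPM in a doxorubicin one. Endothelial marker sums were at most 366 CPM in any library. Blood and immune markers were at most 465 CPM except in doxorubicin granulosa cell 15, which had 34796 CPM, and Adgre1 of that list had no row.

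In oocytes 3 of the 8 genes, Phlda3, Plk2 and Sesn2, were at least 2-fold higher after doxorubicin, and 0 were at least 2-fold lower. Over the 11119 genes that reached 5 CPM in 1 of the oocyte groups or in both, 6.3% were at least 2-fold higher and 2.45% lower. The median log2 ratio of doxorubicin over control was 0.64 for the 8 genes and 0.01 for all genes, whose quartiles were -0.24 and 0.25. In granulosa cells 4 of the 8 genes, Phlda3, Plk2, Sesn2 and Zmat3, were at least 2-fold higher, and 0 were at least 2-fold lower. The background was far wider there. Of 12194 genes 20.6% were at least 2-fold higher and 20% lower, with quartiles of -0.76 and 0.76 around a median of -0.03. The median of the 8 genes was 1.202. Phlda3, Plk2 and Sesn2 passed 2-fold in both cell types, as did 1.59% of the 10045 genes measured in both. The 2 comparisons use different cells, and no test was made of the difference between them. These counts of 3 and 4 genes did not change when any single cell was left out. Among the 5 doxorubicin and 11 control granulosa libraries with more granulosa than oocyte marker CPM the same 4 genes passed, with log2 ratios of 3.68 for Phlda3, 3.10 for Plk2, 1.74 for Sesn2 and 3.19 for Zmat3. Among the oocytes with under 200 CPM of granulosa markers 4 genes passed, as Plk3 joined the 3.

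**Figure D1:**
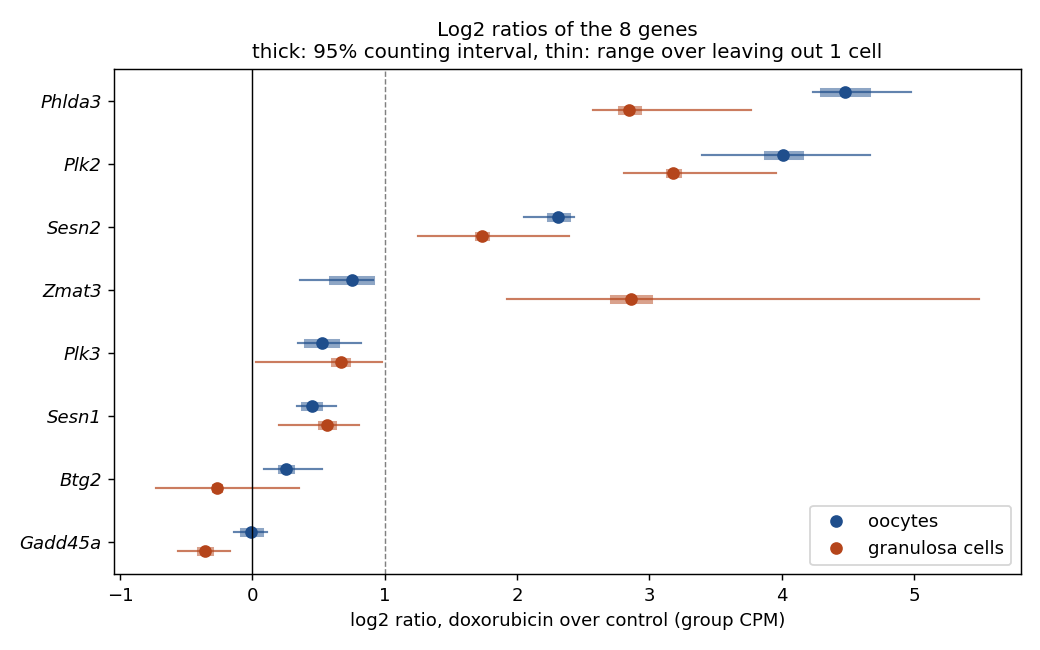
Log2 ratio of group CPM, doxorubicin over control (horizontal axis), for each of the 8 genes in oocytes (blue) and granulosa cells (orange). Points are the ratios over all cells, thick bars the 95% counting intervals, thin bars the range over leaving out each cell in turn, and the dashed line marks 2-fold. Phlda3, Plk2 and Sesn2 lie to the right of the dashed line in both cell types over the whole thin bar, Zmat3 does so in granulosa cells, and the bars of Gadd45a in oocytes and of Btg2 in granulosa cells cross 0.

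Phlda3, the AKT competitor, had the highest ratio of the 8 genes in oocytes. It lies on chromosome 1 at 135766119-135769136 (GRCm38, plus strand). In control oocytes it ranged from 0 to 9.41 CPM with a median of 0.50 CPM. In doxorubicin oocytes it ranged from 0 to 114 CPM, with a median of 33.4 CPM. The doxorubicin oocytes fell into a high and a low set: 11 cells, from 14.3 to 114 CPM, were above every control oocyte, cell 2 was within the control range at 8.02 CPM, and cells 8, 14, 15 and 16 had at most 0.30 CPM. Summed over cells, the level was 1.71 CPM without and 38.1 CPM with the drug, a 22.3-fold difference with a log2 ratio of 4.48 (counting interval 4.32 to 4.64). Leaving out doxorubicin oocyte 4 gave 4.23, and leaving out control oocyte 8 gave 4.98. Phlda3 and Sesn2 were the 2 of the 8 genes for which at least 8 doxorubicin oocytes lay above every control, as was the case for 1.96% of all genes.

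Granulosa cells also fell into cells with and without Phlda3. The control cells ranged from 0 to 119 CPM with a median of 0, since only cells 2, 4, 13 and 15 reached 1 CPM, at 56.3, 43.0, 119 and 22.5 CPM. Control granulosa cell 13, the highest, was also the one with the most stroma marker CPM. In doxorubicin granulosa cells Phlda3 ranged from 0 to 315 CPM with a median of 102 CPM, and 10 of 13 cells reached 1 CPM. Summed over cells, the level was 16.04 CPM without and 116 CPM with the drug, a 7.20-fold difference with a log2 ratio of 2.85 (2.79 to 2.91). Without control cell 13 the ratio was 3.77, and without doxorubicin cell 8 it was 2.57. Because that control cell stood at 119 CPM, only 4 of 13 doxorubicin cells lay above the highest control, and 0.631% of all genes had at least 7 of 13 cells there.

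Plk2, a kinase that acts in stress checkpoints, had the highest ratio of the 8 genes in granulosa cells and the second highest in oocytes. It lies on chromosome 13 at 110395046-110400844 (plus strand). In control oocytes it ranged from 0 to 10.4 CPM, with a median of 0.22 CPM. In doxorubicin oocytes the range was 0 to 367 CPM and the median 8.37 CPM. The groups overlapped widely at the low end, but 7 of 16 doxorubicin oocytes were above every control oocyte, and cells 11, 10 and 12 led with 367, 147 and 94.3 CPM. These 3 cells carried 2836, 390 and 2226 CPM of granulosa markers, and Plk2 is among the genes that were higher in granulosa cells than in oocytes. The summed level was 3.11 CPM in controls and 50.2 CPM after the drug, a 16.1-fold difference and a log2 ratio of 4.01 (3.89 to 4.13). Leaving out doxorubicin oocyte 11 gave 3.40, and leaving out control oocyte 16 gave 4.67. Among the 12 doxorubicin and 12 control oocytes under 200 CPM of granulosa markers the ratio was 5.06, from 0.61 CPM in controls and 20.5 CPM after the drug. This limit also left out control oocytes 7, 9, 14 and 16, the 4 controls with the most Plk2 (10.4, 6.78, 5.88 and 9.08 CPM). The part of other cells' RNA in the Plk2 level of oocytes was not tested.

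Every doxorubicin granulosa cell expressed Plk2. The level ranged from 88.4 to 2307 CPM, with a median of 446 CPM and the highest value in cell 9. In control granulosa cells it ranged from 0 to 523 CPM with a median of 5.74 CPM, and 8 of 16 cells reached 1 CPM. The quartile ranges of the cells did not overlap, from 215 to 1045 CPM after doxorubicin and from 0.060 to 120 CPM in controls. The group level was 657 against 72.6 CPM, a 9.06-fold difference and a log2 ratio of 3.18 (3.15 to 3.21). It lay between 2.81, without doxorubicin cell 9, and 3.96, without control cell 8.

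Plk3, the related kinase on chromosome 4 at 117128655-117133963 (minus strand), differed little. In control oocytes it ranged from 0 to 33.1 CPM with a median of 5.77 CPM, and in doxorubicin oocytes from 0 to 30.5 CPM with a median of 8.37 CPM. No doxorubicin oocyte was above the highest control. The log2 ratio was 0.52 (0.42 to 0.62), and it moved between 0.35 and 0.82 over leaving out 1 cell. The choice of oocytes mattered more. Among oocytes under 200 CPM of granulosa markers the ratio was 1.05, and it was 1.67 among the 10 doxorubicin and 10 control oocytes that also had under 200 CPM of stroma markers. In granulosa cells Plk3 was present or absent from cell to cell, with medians of 0.046 CPM in control and 0.35 CPM in doxorubicin cells and highest values of 176 and 399 CPM. It reached 1 CPM in 7 of 16 control and 6 of 13 doxorubicin cells. The log2 ratio of 0.67 (0.63 to 0.71) rested on doxorubicin granulosa cell 9, without which it was 0.02. It was -0.29 among granulosa libraries with more granulosa than oocyte marker CPM. Plk3 overlaps Tctex1d4 on the opposite strand. Tctex1d4 had no row under this name, and whether reads of the shared stretch were counted for Plk3 is not known.

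**Figure D2:**
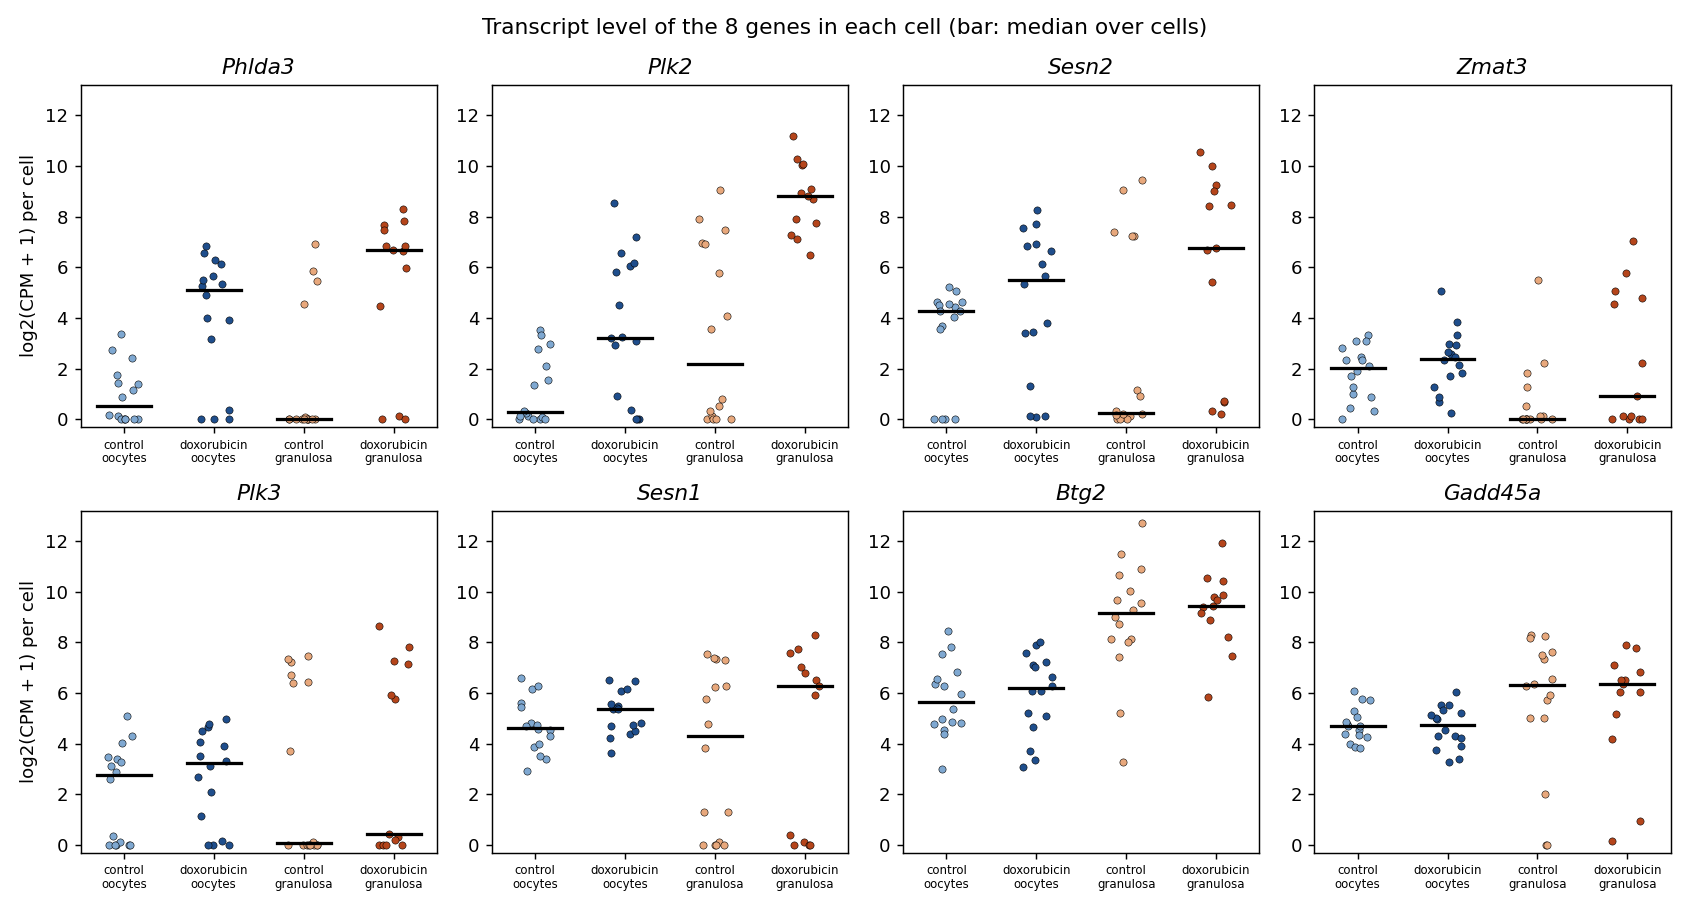
Level of each of the 8 genes in every cell as log2(CPM + 1) (vertical axis), in the 16 control oocytes, 16 doxorubicin oocytes, 16 control granulosa cells and 13 doxorubicin granulosa cells. Each point is 1 cell and each bar the median over cells. In doxorubicin oocytes Phlda3 is above every control oocyte in 11 of 16 cells and Plk2 in 7 of 16, with the other cells inside the control range, Plk2 is at 88.4 CPM or more in every doxorubicin granulosa cell, and the oocyte points of Btg2 and Gadd45a cover the same range in both groups.

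Sesn2, the leucine-sensing sestrin on chromosome 4 at 132492032-132510501 (minus strand), had higher levels after doxorubicin in oocytes and in granulosa cells. In control oocytes it ranged from 0 to 36.4 CPM with a median of 18.1 CPM, and 12 of 16 cells reached 1 CPM. In doxorubicin oocytes it ranged from 0.072 to 307 CPM, with a median of 44.6 CPM. Unlike Phlda3 and Plk2, Sesn2 was thus detected in most control oocytes, and the doxorubicin oocytes lay either within the control range or above it. Above every control oocyte were 9 of 16 cells, from 39.3 to 307 CPM, and the other 7 had at most 13.01 CPM. The summed level was 15.6 CPM in controls and 77.4 CPM after the drug, a 4.96-fold difference and a log2 ratio of 2.31 (2.25 to 2.37). The ratio was 2.05 without doxorubicin oocyte 11 and 2.43 without doxorubicin oocyte 2. In granulosa cells Sesn2 ranged from 0 to 701 CPM in controls (median 0.20 CPM, 6 of 16 cells at 1 CPM or more) and from 0.16 to 1513 CPM after doxorubicin (median 106 CPM, 9 of 13 cells). The log2 ratio was 1.74 (1.71 to 1.76). It was 2.39 without control cell 8, the highest control, and 1.25 without doxorubicin cell 9, the highest of all. Gm12981 overlaps Sesn2 on the same strand and had no row, so its level is not known here.

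Its paralog Sesn1, on chromosome 10 at 41809935-41908424 (plus strand), was expressed in every oocyte. The control oocytes ranged from 6.69 to 95.1 CPM with a median of 23.7 CPM, and the doxorubicin oocytes from 11.5 to 90.9 CPM with a median of 40.8 CPM. The groups overlapped over nearly their whole range. The log2 ratio was 0.45 (0.40 to 0.50) and lay between 0.33 and 0.63 over leaving out 1 cell. In granulosa cells Sesn1 ranged from 0 to 184 CPM in controls, with a median of 19.9 CPM, and from 0 to 309 CPM after doxorubicin, with a median of 76.0 CPM. The group ratio there was 0.56 (0.53 to 0.60) and was 0.20 without doxorubicin cell 14. The difference of the cells' medians on the log2(CPM + 1) scale was larger, 1.96. The gene 9930024M15Rik overlaps Sesn1 on the same strand and was at most 0.50 CPM in any group.

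Btg2, the deadenylase recruiter, was the most abundant of the 8 genes per length of transcript in every group. It lies on chromosome 1 at 134075170-134079120 (minus strand). Besides being a p53 target, Btg2 is known as an immediate early gene. In control oocytes it ranged from 6.999 to 345 CPM with a median of 50.8 CPM, and in doxorubicin oocytes from 7.52 to 259 CPM with a median of 72.1 CPM. No doxorubicin oocyte was above the highest control, oocyte 9. The log2 ratio was 0.25 (0.22 to 0.28), from 0.09 if doxorubicin oocyte 4 was left out to 0.53 if control oocyte 9 was. The 3 control oocytes with the most Btg2, cells 9, 4 and 5 with 345, 227 and 184 CPM, were those with the most stroma marker CPM, 740, 911 and 834. Cells 4 and 9 also had the highest sums of 13 immediate early genes among control oocytes, 2629 and 2322 CPM. In the oocytes with under 200 CPM of granulosa and under 200 CPM of stroma markers, a choice made after the data were seen, the ratio of Btg2 was 1.28. The part of other cells' RNA in the Btg2 level was not tested.

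In granulosa cells Btg2 was high with and without the drug. The control cells ranged from 8.68 to 6656 CPM with a median of 569 CPM, and the doxorubicin cells from 57.0 to 3874 CPM with a median of 696 CPM. Control granulosa cell 13 alone supplied 39.4% of the control counts. The group ratio was therefore -0.27 (-0.28 to -0.26) over all cells, 0.35 without that cell and -0.73 without doxorubicin cell 9, while the difference of the cells' medians was 0.30.

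Gadd45a, which links damage to PCNA, CDK1 and MAP3K4, was the gene with the smallest difference in oocytes. It lies on chromosome 6 at 67035096-67037457 (minus strand). It was present in every oocyte, from 13.4 to 66.5 CPM in controls with a median of 25.1 CPM, and from 8.63 to 65.4 CPM after doxorubicin with a median of 26.1 CPM. The log2 ratio was -0.01 (-0.06 to 0.05), and it lay between -0.14 and 0.11 over leaving out 1 cell. In granulosa cells the medians were 79.1 CPM in control and 80.4 CPM in doxorubicin cells, with highest values of 309 and 238 CPM. The group ratio was -0.36 (-0.39 to -0.32). Its sign was negative without any single cell, from -0.56 to -0.17, but the difference of the cells' medians was 0.02. A gene on the opposite strand, E230016M11Rik, overlaps Gadd45a and was at most 2.54 CPM in any group. Whether strand was used in counting is not stated.

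Zmat3, the RNA-binding protein gene on chromosome 3 at 32334792-32366014 (minus strand), was the least abundant of the 8 per length of transcript. In control oocytes it ranged from 0 to 8.998 CPM with a median of 3.05 CPM, and in doxorubicin oocytes from 0.18 to 32.1 CPM with a median of 4.25 CPM. Only cells 9, 4 and 10, with 32.1, 13.4 and 9.17 CPM, were above every control oocyte. The log2 ratio was 0.75 (0.61 to 0.89). It was 0.36 without doxorubicin oocyte 9, which carried the most granulosa and stroma marker CPM of the oocytes. Granulosa cells differed more, with group levels of 3.19 CPM in control and 23.2 CPM in doxorubicin cells, a 7.27-fold difference and a log2 ratio of 2.86 (2.73 to 2.99). Few cells made that difference. In controls 84.8% of the counts came from cell 9, and without it the ratio was 5.49. In doxorubicin cells 52.6% came from cell 8, and without it the ratio was 1.92. The cells' medians were 0 and 0.88 CPM, and 4 of 16 and 6 of 13 cells reached 1 CPM.

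The doxorubicin oocytes were not alike. Counted per cell, 5 of 16 doxorubicin oocytes (cells 2, 8, 14, 15 and 16) had none of the 8 genes above the highest control oocyte. Another 5 cells had 2 such genes, 4 cells had 3, and cells 4 and 10 had 4, namely Plk2, Sesn2, Zmat3 and Phlda3. All 11 cells with at least 1 such gene had Phlda3 among them, and 9 of the 11 had Sesn2. Cells 9 and 12 were the exceptions for Sesn2. The share of all genes above the highest control in a single cell is not given, so these counts are a description only. The 5 oocytes with none had Mdm2 between 75.2 and 207 CPM and Cdkn1a between 15.6 and 50.4 CPM. The highest control values were 207 CPM of Mdm2, the p53 inhibitor gene, in control oocyte 1 and 42.0 CPM of Cdkn1a in control oocyte 11. Doxorubicin oocytes 8 and 14, with none of the 8 genes above the controls, exceeded every control for Cdkn1a, at 42.7 and 50.4 CPM. Oocyte 7 went the other way, with 3 of the genes above the controls, 540 CPM of Mdm2 and 7.90 CPM of Cdkn1a. Oocytes 6 and 12 had 3 and 2 of the genes above the controls and 103 and 269 CPM of Cdkn1a, but their Mdm2 (161 and 145 CPM) was inside the control range. The 5 oocytes with none had 7.68 to 94.8 CPM of granulosa markers and 23376 to 43909 CPM of oocyte markers. The sum of the 8 genes ranged from 65.7 to 414 CPM in control oocytes (median 149 CPM) and from 63.2 to 976 CPM in doxorubicin oocytes (median 341 CPM), and 5 of 16 were above the highest control.

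**Figure D3:**
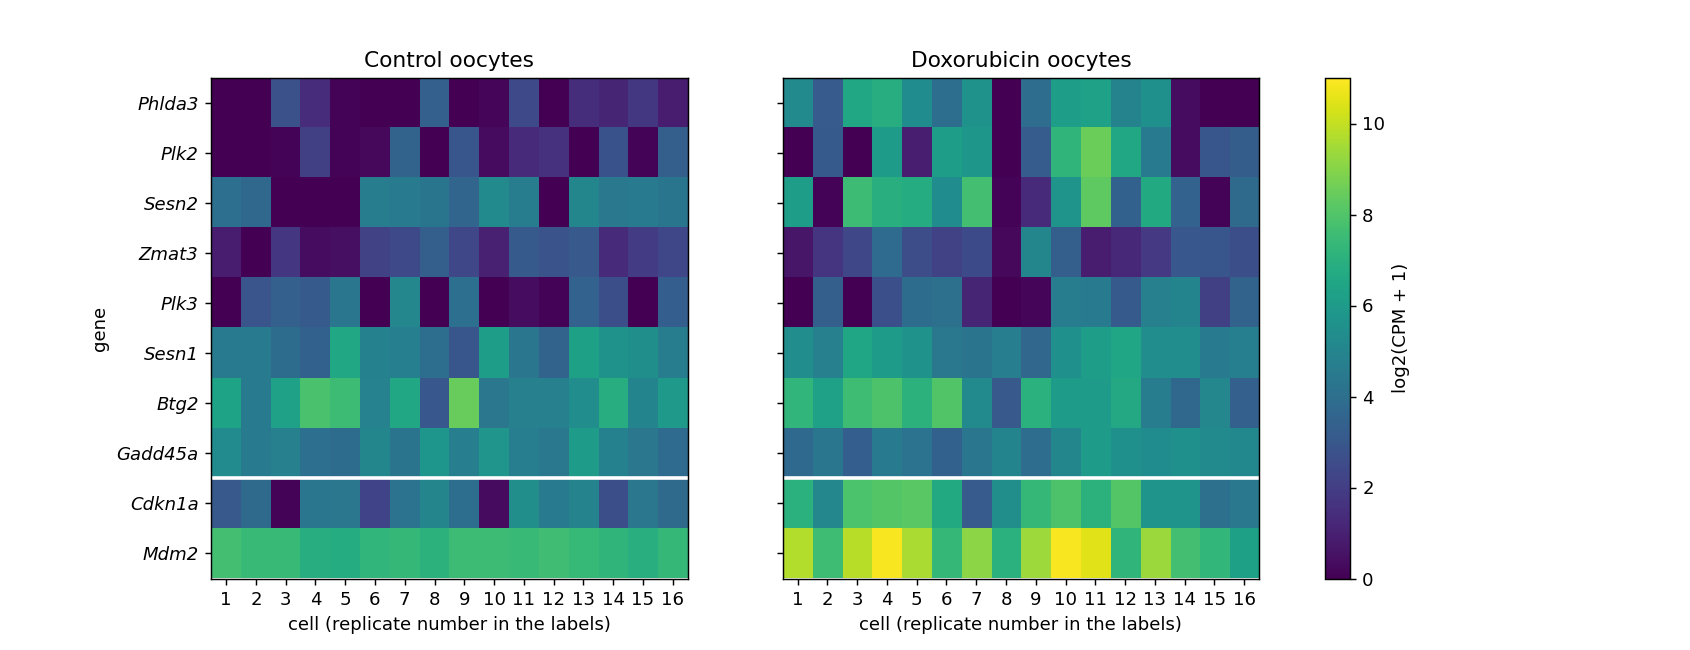
Level as log2(CPM + 1) (colour) of the 8 genes, and below the white line of Cdkn1a and Mdm2 (rows), in each control oocyte (left) and each doxorubicin oocyte (right), numbered as in the labels. Doxorubicin oocytes 2, 8, 14, 15 and 16 have none of the 8 genes above the highest control oocyte, and in 8, 14, 15 and 16 Phlda3 is at most 0.30 CPM.

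In doxorubicin granulosa cells 6 of 13 had none of the 8 genes above the highest control cell, 3 cells had 1 and cell 14 had 2. Cell 8 had 3, and cells 2 and 9 had 5. No share over all genes is at hand beside these counts per cell, so they are a description only. Cell 9 was the highest of its group for Plk2, Plk3, Sesn2 and Btg2, and also for Cdkn1a at 4606 CPM. The sum of the 8 genes ranged from 69.8 to 7065 CPM in control cells and from 493 to 8549 CPM after doxorubicin, with medians of 838 and 2093 CPM. Only 1 of 13 cells was above the highest control, since control granulosa cell 13 had 6656 CPM of Btg2 alone.

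The variation among the 16 doxorubicin oocytes was shared by some of the genes and not by others. The values here are Pearson correlations of log2(CPM + 1) over cells of 1 group, given as a description, since the cells share library chemistry and scaling. Phlda3 and Sesn2 had the highest value of the 28 pairs (r = 0.77, Spearman's rho 0.85), followed by Phlda3 and Btg2 (0.73, rho 0.53). Phlda3 also varied with Mdm2 (0.83) and with the cyclin G1 gene Ccng1 (0.86), 2 other targets of the family, and Sesn2 with Ccng1 (0.78). With Cdkn1a the value was lower for Phlda3 (0.60) than with those genes, and 0.67 for Btg2. Plk2 had no value above 0.48 with another of the 8 genes, and Zmat3 none above 0.22. Gadd45a ran opposite to Btg2 (-0.62, rho -0.67) and had -0.28 with Phlda3 and 0.54 with Plk3. Over the 28 pairs the median was 0.22 in doxorubicin and -0.08 in control oocytes, where Plk3 and Btg2 had the highest value (0.69). It was -0.02 in control and 0.18 in doxorubicin granulosa cells.

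**Figure D4:**
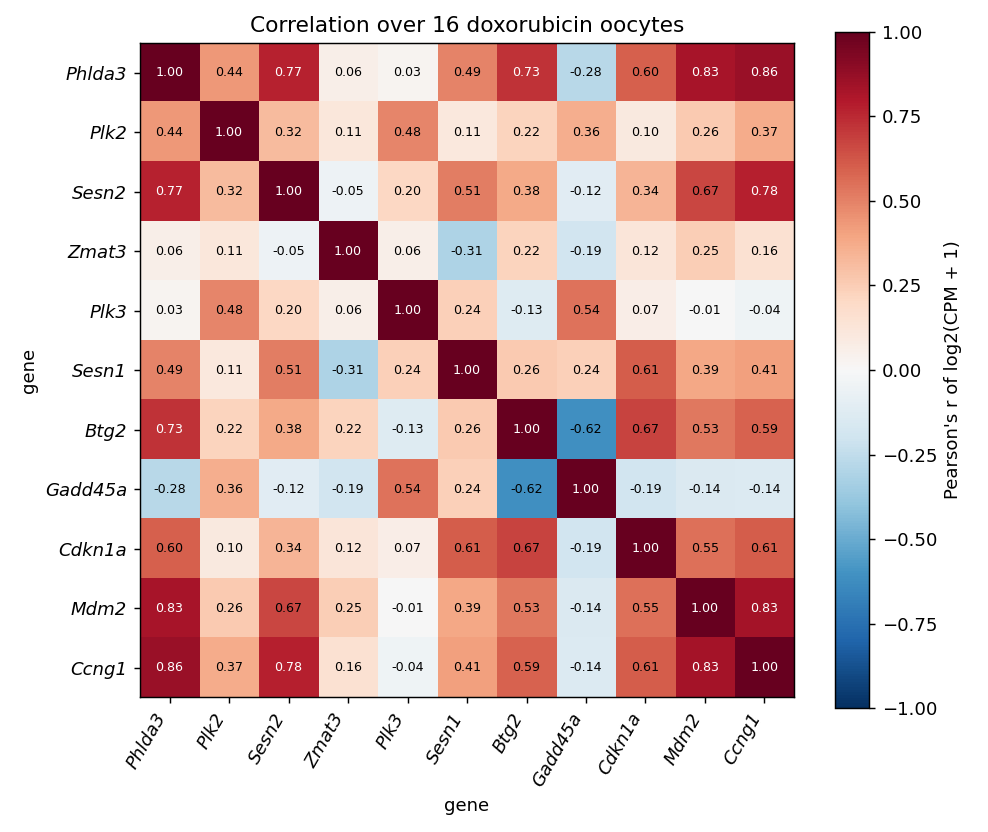
Pearson's r of log2(CPM + 1) over the 16 doxorubicin oocytes, for each pair of the 8 genes and of Cdkn1a, Mdm2 and Ccng1 (both axes), printed in each cell and coloured from blue (negative) to red (positive). Phlda3 has values of 0.73 to 0.86 with Sesn2, Btg2, Mdm2 and Ccng1, and Gadd45a has -0.62 with Btg2.

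The genes most like each of the 8 were sought by the same measure over all 32 oocytes among 11118 others. Phlda3 was most like 1700007K13Rik (r = 0.89) and Fermt3 (0.87), the gene of an integrin activator of blood cells. Both were low in control oocytes, at 0.13 and 1.47 CPM, and stood at 39.9 and 242 CPM after doxorubicin. Sesn2 was most like Prickle3 (0.74), which went from 12.4 to 172 CPM, and Tchp (0.72), from 36.6 to 113 CPM. Plk2 was most like Pdlim4 (0.70) and Tap1 (0.68), the antigen peptide transporter gene. For the genes with small differences the nearest were Sulf2 and Lrp1 for Btg2 (0.75 each), Stk11 and Ankrd26 for Sesn1 (0.68 and 0.67), and Bbx and Srfbp1 for Gadd45a (0.71 and 0.68). Plk3 was nearest to Phf23 and Tnfsf13os (0.68 and 0.60), and Zmat3 to Trp53, the p53 gene, and Igbp1 (0.59 each). These are the 2 highest of 11118 values for each gene, so high values come with the choice. The 2 oocyte groups were pooled here, so a difference between the groups that 2 genes share also adds to r. Over the doxorubicin oocytes alone the same pairs had 0.91 and 0.91 for Phlda3, 0.78 and 0.82 for Sesn2, and 0.68 and 0.72 for Plk2.

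Between the cell types 7 of the 8 genes were at least 2-fold lower in oocytes when controls were compared, as were 31.3% of all 12373 genes, and 0 were at least 2-fold higher, as were 29% of all genes. The granulosa level was 23.3-fold higher for Plk2, 13.8-fold for Btg2, 9.37-fold for Phlda3, 7-fold for Plk3, 6.97-fold for Sesn2, 4.40-fold for Gadd45a and 2-fold for Sesn1. Zmat3 was the exception, at 3.47 CPM in control oocytes and 3.19 CPM in control granulosa cells, with a log2 ratio of 0.12 whose counting interval (-0.04 to 0.29) included 0. That ratio rested on control granulosa cell 9. Without this cell the granulosa level of Zmat3 was 0.51 CPM and the log2 ratio 2.75, so that 1 of the 8 genes was at least 2-fold higher in oocytes. Single granulosa cells set part of the other values too. The granulosa excess was 13.6-fold for Plk2 and 4.42-fold for Sesn2 without control cell 8, and 8.98-fold for Btg2 and 4.95-fold for Phlda3 without control cell 13. It was 36.7-fold for Plk2 without control oocyte 16. Sesn1 lay at the 2-fold limit and was 1.69-fold without control granulosa cell 7, which left 6 genes past it. After doxorubicin all 8 genes were at least 2-fold lower in oocytes, as were 28.2% of 12428 genes (27.6% were higher). The granulosa excess ranged from 2.16-fold for Sesn1 to 13.1-fold for Plk2, and without doxorubicin granulosa cell 14 that of Sesn1 was 1.68-fold. The excess of Plk2 was 20.1-fold without doxorubicin oocyte 11. That of Zmat3 was 2.07-fold without doxorubicin granulosa cell 8. That of Phlda3 was 3.03-fold. The ratio after doxorubicin was larger in oocytes than in granulosa cells by 1.63 for Phlda3, 0.83 for Plk2 and 0.57 for Sesn2 on the log2 scale, and for Zmat3 it differed by -2.11. These differences between cell types were not tested, and the thin bars of the plot of ratios overlap for Plk2 and Sesn2. For Phlda3, Plk2 and Sesn2 the order turned around with the difference of the cells' medians on the log2(CPM + 1) scale. It was 4.56 in oocytes and 6.69 in granulosa cells for Phlda3, 2.94 and 6.63 for Plk2, and 1.24 and 6.48 for Sesn2. In oocytes under 200 CPM of granulosa markers and granulosa libraries with more granulosa than oocyte marker CPM the order was kept. The ratios there were 3.99 and 3.68 for Phlda3, 5.06 and 3.10 for Plk2, and 2.36 and 1.74 for Sesn2.

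Ordered by group level, doxorubicin granulosa cells came first for Plk2, Plk3, Sesn1, Sesn2, Zmat3 and Phlda3, and control granulosa cells came first for Btg2 and Gadd45a. Control oocytes were lowest except for Gadd45a, where doxorubicin oocytes had 27.2 CPM and control oocytes 27.4 CPM, and for Zmat3, where control granulosa cells were lowest. Of the 24 neighbouring pairs in these orders, 19 had overlapping quartile ranges over cells. The 5 that did not were doxorubicin over control granulosa cells for Plk2, doxorubicin granulosa cells over doxorubicin oocytes for Btg2 and over control oocytes for Gadd45a, control oocytes over control granulosa cells for Zmat3, and doxorubicin oocytes over control granulosa cells for Phlda3. The count of cells at 1 CPM or more hardly depended on depth, as thinning every cell to 6834594 counts changed 5 of 32 such counts, each by 1 cell.

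Levels of different genes are compared per kilobase of the longest annotated transcript. In control oocytes Btg2 led with 30.5 CPM per kb, followed by Gadd45a with 22.4, while Phlda3 (1.19), Plk2 (1.11) and Zmat3 (0.45) were lowest. After doxorubicin Btg2 still led with 36.4 CPM per kb, but Phlda3 came second with 26.6, ahead of Sesn2 (22.3), Gadd45a (22.2) and Plk2 (17.9). Phlda3 thus moved from the sixth place to the second. In granulosa cells Btg2 stood at 421 CPM per kb in control and 350 in doxorubicin cells. Plk2 went from 25.9 to 235 and took the second place, which Gadd45a held in control cells with 98.3 CPM per kb.

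The other genes around the 8 were read from lists chosen with earlier results of these data known. Of 31 other p53-family targets with a row, 27 reached 5 CPM in the oocytes. Of these, 14 (51.9%) were at least 2-fold higher after doxorubicin, with 0 lower and a median log2 ratio of 1.10. Over all genes in oocytes 6.3% were higher and 2.45% lower. The highest were Eda2r (0.31 to 31.6 CPM, log2 ratio 6.69, and 10.5 without control oocyte 9), a death receptor gene, Psrc1 (4.02, and 4.74 without control oocyte 4), Sfn (3.93), the stratifin gene, and Pmaip1 (3.23), which encodes the death factor NOXA. In granulosa cells 20 of 28 (71.4%) were at least 2-fold higher and 0 lower, with a median of 1.83. Over all genes there 20.6% were higher and 20% lower. Cdkn1a had a log2 ratio of 6.42 there, and 7.62 without control granulosa cell 5. Pmaip1 had 9.19 on 15 control counts, with 7.16 if doxorubicin cell 6 was left out and 11.4 if control cell 7 was. Rprm and Pidd1 had 0 counts in control granulosa cells and 13.5 and 5.56 CPM after doxorubicin. Against a floor of 3 counts over the control group their ratios were 809.6-fold and 334-fold, or 9.66 and 8.38 as log2. The counting intervals of these log2 ratios began lower, at 9.36 and 8.08, and had no upper end. The log2 ratio fell to 9.06 for Rprm without doxorubicin granulosa cell 8 and to 7.22 for Pidd1 without cell 13. The shares of the 8 genes at 2-fold, 37.5% and 50%, were the lower ones in both cell types. That difference was not tested.

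The paralogs of the 8 genes, which are similar proteins mostly outside the p53 response, had medians near those of all genes. Of 14 measured paralogs in oocytes 1 was at least 2-fold higher and 0 lower, with a median of 0.07, against 6.3% and 2.45% of all genes there. That gene was Phlda1, at 6.64 CPM in controls and 14.04 CPM in doxorubicin oocytes (log2 ratio 1.08, and 0.72 without doxorubicin oocyte 12). The third sestrin gene, Sesn3, had a ratio of -0.15 in oocytes, and Plk1, the mitotic kinase gene, 0.06. In granulosa cells 1 of 14 was higher, Btg4 (1.96), and 3 were lower, namely Tob2 (-2.16, and -1.45 without control cell 3), Sesn3 (-1.52) and Zmat1 (-1.09). Both counts are read against the 20.6% of all genes that were higher and the 20% that were lower in these cells. Without control granulosa cell 8 the value of Sesn3 was 0.15 and that of Btg4 was 3.62. That of Zmat1 was -0.71 without control cell 4 and -2.02 without doxorubicin cell 13.

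Genes of proteins that the 8 bind or act on had medians near 0 as well. Of 23 in oocytes 1 was at least 2-fold higher and 0 lower, beside 6.3% and 2.45% of all genes, with a median of -0.06. The single gene was Wdr59, which encodes a GATOR subunit of the complex that sestrins bind. It stood at 4.47 CPM in controls and 38.6 CPM in doxorubicin oocytes, 8.64-fold higher with a log2 ratio of 3.11 (3.01 to 3.21), above the highest control in 12 of 16 cells, and between 3.01 and 3.50 over leaving out 1 cell. In granulosa cells 2 of 23 were at least 2-fold lower, where 20% of all genes were. These were Keap1 (-2.35, and -4.46 without doxorubicin granulosa cell 15), the brake on NRF2, and Prkaa2, an AMPK subunit gene, with 9.58 CPM in control and 0 counts in doxorubicin cells. Against the floor of 3 counts the log2 ratio of Prkaa2 was -8.83, and it was -6.54 without control granulosa cell 10. The median of the list was -0.05.

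**Figure D5:**
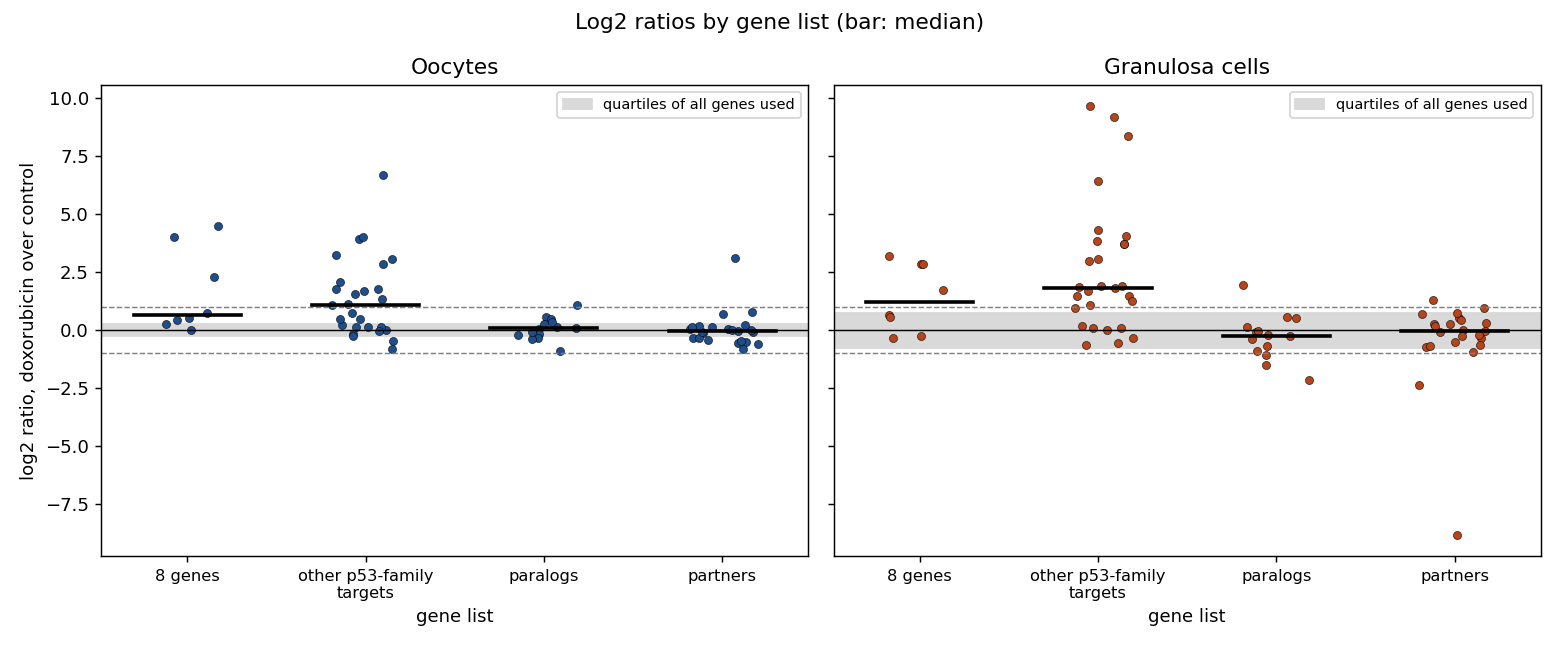
Log2 ratio of group CPM, doxorubicin over control (vertical axis), for genes that reached 5 CPM, from the 8 genes, 31 other p53-family targets, 17 paralogs and 23 partners (horizontal axis), in oocytes (left) and granulosa cells (right). Points are genes, black bars list medians, the grey band the quartiles of all genes, and dashed lines 2-fold; genes with 0 counts in a group (such as Rprm and Prkaa2) are drawn at the floor of 3 counts. The medians of the 8 genes are 0.64 and 1.202, those of the other targets 1.10 and 1.83, and those of paralogs and partners lie between -0.24 and 0.07.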

How the data were processed

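Polyadenylated RNA of single cells was reverse transcribed, amplified and tagged with a full-length low-input kit (SMART-seq v4, Nextera XT), per the labels' protocols. A single table of estimated counts was deposited, and 34.0% of its nonzero values are not whole. The submitters' processing notes name Partek, Bowtie2, HISAT2, DESeq2 and the build mm10, with no role or version for the tools, and the annotation and filters are not given in the sources used here. Each of the 61 columns carries the library name of 1 sample, and 0 were left out. Doxorubicin oocyte 4, whose raw data the series text reports as lost, was kept. Gene names turned into dates stood in 22 of the gene entries and were kept in the totals. The closest pair of cells in a group (control oocytes 2 and 6) differed by a chi-square of 56.7 divided by its degrees of freedom, so no library appears 2 times.

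The 8 genes and all lists were chosen with earlier results of these data known. Counts were rounded and summed over the cells of a group, and a group under 3 counts was set to 3. Groups were compared by the log2 of the quotient of their CPM, with an exact conditional binomial (Clopper-Pearson) interval at 95%. Genes had to reach 5 CPM in 1 of the groups compared, and 2-fold was the limit for a count. The genes named were the 8, up to 4 in each direction per list and cell type past 2-fold, and the 2 genes most like each of the 8. The result of 1 gene of the partner list is not reported here. Alternatives were equal-weight means, medians of cells, edgeR TMM and DESeq2 size factors on group sums (0.987 to 1.013), unrounded counts, other limits on low genes, libraries with few transcripts of other cell types, and leaving out each cell. The calculation was tested on simulated data. Spans and lengths are from GENCODE M21 (GRCm38), promoter windows from RefSeq (GRCm38.p6). Software: R 4.3.3 with DESeq2 1.42.0 and edgeR 4.0.16, and Python 3.11.15 with scipy 1.17.1, pandas 2.3.3, numpy 2.4.6 and matplotlib 3.10.9.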

Additional observations from a re-analysis of the deposited data

Results flagged for a closer look

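The check covered 24 genes. These were the 8 genes, the paralogs and partners past 2-fold in either cell type, and the highest other p53-family targets in each. In 3 genes the log2 ratios had opposite signs in oocytes and granulosa cells, kept them without any single cell and had counting intervals excluding 0. None of the 8 genes was among them. Btg4 had a ratio of -0.32 in oocytes and 1.96 in granulosa cells. Btg4 is known as an oocyte gene, at 341 CPM in control oocytes, and the median sum of oocyte markers in granulosa libraries was 1751 CPM in controls and 9158 CPM after doxorubicin. The part of oocyte RNA in the Btg4 level of the granulosa libraries was not tested. Phlda1 had ratios of 1.08 and -0.70. Wdr59 had ratios of 3.11 and -0.50, and the granulosa ratio was only -0.0076 without control granulosa cell 1. The differences between the cell types were not tested.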

How the results depend on the processing

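The 8 genes had 3 members past 2-fold in oocytes and 4 in granulosa cells under both scalings, under equal-weight means, without rounding, under other limits on low genes and without any single cell (3 to 3 and 4 to 4). The difference of the cells' medians also gave 3 and 4, but with Sesn1 in place of Zmat3 in granulosa cells. Oocytes under 200 CPM of granulosa markers gave 4 genes and a median log2 ratio of 0.85. With stroma markers under 200 CPM too, a choice made after the data were seen, the count was 5 and the median 1.47, as Plk3 and Btg2 passed. The median in granulosa cells was 1.44 for the cells' medians, 1.24 with edgeR TMM factors, 1.24 with DESeq2 size factors, and 1.14 without the library over 1000 CPM of blood markers, also chosen afterwards. Leaving out 1 cell at a time gave medians of 0.55 to 0.80 in oocytes and 0.83 to 1.48 in granulosa cells. The sign of Gadd45a in oocytes differed from that reported in 14 of 39 alternatives. In granulosa cells of 36 alternatives the sign of Plk3 differed in 1, of Btg2 in 2 and of Gadd45a in 1. Leaving out cells in the comparison of oocytes with granulosa cells was also chosen afterwards, and gave 6 to 7 genes lower in control oocytes and 7 to 8 in doxorubicin oocytes. The cause was not tested for these changes. No paired analysis was possible because no animal or culture was named, the numbers in the labels only name cells, and no test was made.

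With 1 sample per group, no value here has an error between animals. At these depths counting error was small beside the spread of cells, and a gene at 0 counts in a cell is only listed at 0, not shown to be absent. Transcripts of other cell types in a library were measured only through marker lists.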

Other observations

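Genes of the ATF4 pathway, which also controls Sesn2 under amino acid or endoplasmic reticulum stress, were not higher as a list. Whether this pathway acted on Sesn2 in these cells was not tested. In oocytes 0 of 12 were at least 2-fold higher and 2 were lower, with a median log2 ratio of -0.34, beside 6.3% and 2.45% of all genes. The lower ones were Trib3, at 5.67 CPM in controls and 0.50 CPM after doxorubicin (-3.49, -3.01 without control oocyte 16 and -8.31 without doxorubicin oocyte 10), and the lipoprotein receptor gene Vldlr (-1.41, and -0.99 without control oocyte 16). The serine synthesis gene Psat1 (0.87), Ddit3 (0.74) and the asparagine synthetase gene Asns (0.69) were higher within 2-fold. In granulosa cells, where 20% of all genes were at least 2-fold lower and 20.6% higher, 3 of 11 were lower, namely Mthfd2 (28.8 to 2.72 CPM, -3.40, and -5.34 without doxorubicin cell 15), Nupr1 (191 to 29.1 CPM, -2.71) and Asns (-1.09, and -0.67 without control granulosa cell 7). The gene past 2-fold upward was Chac1, with 1 count in control cells and 5.99 CPM in doxorubicin cells. Its log2 ratio was 8.49, and 0.43 without doxorubicin granulosa cell 12. These genes were picked from the list after their values were seen.

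Immediate early genes, a group to which Btg2 also belongs, had a median of 0.40 over 12 genes in oocytes, where 2 were at least 2-fold higher and 0 lower (6.3% and 2.45% of all genes). Dusp1, a phosphatase of JNK and p38, stood at 10.9 CPM in controls and 43.3 CPM after doxorubicin (1.99, between 1.42 and 2.64 over leaving out 1 cell), and Ier3 was at 1.13 (0.66 if doxorubicin oocyte 11 was left out). In granulosa cells 0 of 12 were at least 2-fold higher and 4 were lower (20.6% and 20% of all genes), Atf3 (-1.39, and 0.03 without control granulosa cell 3), Nr4a1 (-1.39, and -0.93 without the same cell), Dusp1 (-1.10, -0.53 without control cell 4 and -3.12 without doxorubicin cell 13) and Zfp36 (-1.01, and -0.55 without control cell 2), with a median of -0.51. The summed CPM of the 13 genes ranged from 26.4 to 2629 CPM in control oocytes and from 74.4 to 2367 CPM in doxorubicin oocytes, and from 3417 to 24744 CPM and 3132 to 22286 CPM in the granulosa groups.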
